A study of Homo sapiens with 4 samples.

Results

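The 34 genes described here encode the 3 chains of fibrinogen, the factors and inhibitors of the coagulation cascade, and the enzymes of fibrinolysis. They were chosen as a list by function, with earlier results of these data known, so their shares below are no independent test of the list. They were read from every array probe carrying their gene symbol, which gave 42 of the 42405 probes and 34 of the 34809 gene names on the array. Expression was measured in Hep3B cells, a human hepatocellular carcinoma line, carrying either a mock hairpin (shR-MOCK) or 1 of 3 short hairpin RNAs against UNC50, named shR-467, shR-554, and shR-749 after the position each targets in UNC50 mRNA. UNC50 encodes a membrane protein of the Golgi apparatus. The mock hairpin, shR-554 and shR-749 were expressed from the plasmid pLKO.1, the vector of shR-467 is not given in the sources used here, and all 4 cultures were selected with puromycin at 1 µg/ml, so the selection was shared by control and knockdown cells. Each culture gave 1 array, so that 1 mock array was compared with 3 knockdown arrays, each from another hairpin, and the spread between control cultures is not known. Whether the selected cells were pools or single clones is not given in the sources used here. Hep3B is a tumour line grown without the endothelium, platelets and blood that complete haemostasis in the body.

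Fibrinogen is made in hepatocytes as a dimer of 3 different chains, the products of FGA, FGB and FGG, which lie next to each other in the genome. Thrombin cuts it to fibrin, which forms the clot. Most coagulation factors and their plasma inhibitors are also liver products, secreted as zymogens or as serpins, whereas plasmin, released from plasminogen by the activators PLAU and PLAT, dissolves the clot. Fibrinogen is an acute phase protein, whose genes are driven in hepatocytes by C/EBP factors and by interleukin-6 acting through STAT3.

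The 3 fibrinogen genes had the largest mean differences from the mock array over the 3 hairpins among the members measured, though not with shR-467 alone, so their cluster, promoters and probes are shown first. In RefSeq on GRCh38.p14 FGB lies at chr4:154562980-154572807 on the plus strand, FGA at chr4:154583126-154590742 and FGG at chr4:154604136-154612656, both on the minus strand, and the cluster spans 49.7 kb between PLRG1 and LRAT. The 250 bases before each annotated start, taken from RefSeq and written along the strand of the gene, are printed with matches to 3 short motifs in capitals.
FGA, chr4:154590743-154590992, minus strand: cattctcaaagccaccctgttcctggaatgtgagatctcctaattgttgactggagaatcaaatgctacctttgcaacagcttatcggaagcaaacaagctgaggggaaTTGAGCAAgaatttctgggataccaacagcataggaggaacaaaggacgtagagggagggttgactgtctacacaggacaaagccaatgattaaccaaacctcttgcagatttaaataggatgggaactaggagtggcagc
FGB, chr4:154562730-154562979, plus strand: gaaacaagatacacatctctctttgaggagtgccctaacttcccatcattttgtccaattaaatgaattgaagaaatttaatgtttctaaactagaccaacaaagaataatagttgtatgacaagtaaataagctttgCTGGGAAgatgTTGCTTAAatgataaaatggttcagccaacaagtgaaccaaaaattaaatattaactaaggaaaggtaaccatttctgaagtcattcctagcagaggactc
FGG, chr4:154612657-154612906, minus strand: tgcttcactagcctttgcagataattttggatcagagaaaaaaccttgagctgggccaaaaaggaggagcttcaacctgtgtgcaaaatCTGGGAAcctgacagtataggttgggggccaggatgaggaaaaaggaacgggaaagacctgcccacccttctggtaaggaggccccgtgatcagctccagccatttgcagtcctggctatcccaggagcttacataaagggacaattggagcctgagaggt
The motifs were searched on both strands and did not overlap one another in these windows. The C/EBP core TTGCNNAA matched FGA and FGB, 133 and 93 bases from the start, and was present in 9.13% of 27305 promoters of the same length. The interleukin-6 response element CTGGGAA matched FGB and FGG, 105 and 154 bases from the start, against 9.3% of promoters. The E-box CACGTG, held by 6.49% of promoters, matched none of the 3. A match is a description of the letters and not a measured binding site.

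Each fibrinogen probe is 60 bases long, and its first 30 bases, as the array files give them, identify which stretch of the transcript was read. Positions are on hg19, where exon annotation was not used here.
FGB, A_23_P136125, chr4:155492029-155492088, plus strand: gagttggtgttcataatttcagttctagtt
FGA, A_23_P375372, chr4:155507248-155507307, minus strand: ggagagagtaccacacagaaaaactggtca
FGA, A_23_P44274, chr4:155504365-155504424, minus strand: attcaacccatttactttggtcaatatttg
FGA, A_24_P282251, no position in the files: taatggaaattttgagaggcgatttttcct
FGG, A_23_P148088, chr4:155526065-155526124, minus strand: cactatgaagataatcccattcaacagact
The probes A_23_P375372 and A_23_P44274 are annotated to different FGA transcripts.

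All 3 fibrinogen genes were higher than on the mock array with every hairpin, by 3.36-fold on average for FGB, 2.87-fold for FGA and 2.56-fold for FGG. FGB, the beta chain, gave a scanner signal of 1414 under shR-MOCK, 1934 under shR-467, 6719 under shR-554 and 9069 under shR-749. Every knockdown array was thus above the mock array, with shR-467 closest to it. After scaling of each array to its 75th percentile, the log2 differences of FGB from mock were 0.65, 1.94 and 2.67 for the hairpins by ascending number, the order kept for all triplets of differences below, with a mean of 1.75 ± 1.02 (SD, n = 3 hairpins). FGA, the alpha chain, read from its brightest probe, gave signals of 502 for the mock hairpin and 703, 1744 and 2660 for the knockdown hairpins in turn. Its log2 differences were 0.68, 1.48 and 2.39, and their mean was 1.52 ± 0.86 (SD, n = 3). FGG, the gamma chain, gave 7352 under shR-MOCK, 9227 under shR-467, 19442 under shR-554 and 40831 under shR-749. Its log2 differences were 0.52, 1.09 and 2.46 (mean 1.36 ± 1.00, SD, n = 3), so that with shR-467 alone it was 1.44 times its mock level and under 1.5-fold.

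The other FGA probes were dimmer and also higher with each hairpin. A_23_P44274 gave signals of 130, 232, 970 and 954 for mock and the hairpins in turn, and log2 differences of 1.03, 2.59 and 2.86 (mean 2.16 ± 0.99, SD, n = 3). A_24_P282251, printed in a single spot, gave 128, 168, 477 and 719 likewise, and its log2 differences averaged 1.55 ± 0.95 (SD, n = 3). In each of the 5 probes the difference was smallest with shR-467 and largest with shR-749. Over the 5 probes the lowest and highest differences were 0.52 and 1.03 under shR-467, 1.09 and 2.59 under shR-554, then 2.39 and 2.86 under shR-749, so that shR-467 did not overlap the others, while A_23_P44274 under shR-554 lay above the lowest probes under shR-749. Probes on an array share its RNA and are not replicates. Duplicate spots of a probe on one array differed by 0.006 to 0.138 on the log2 scale, with a median of 0.071 over 16 pairs, a measure of the array surface that leaves out the culture.

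**Figure D1:**
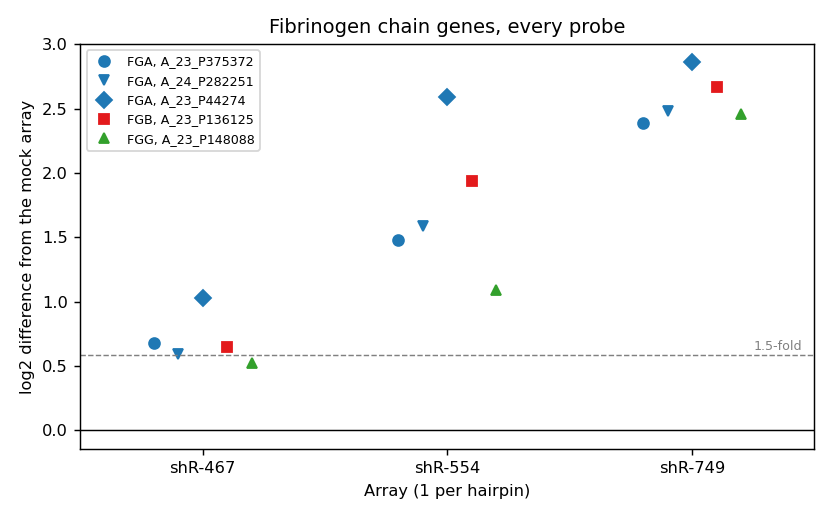
Log2 difference from the mock array (vertical axis) for every fibrinogen probe with each hairpin (horizontal axis, 1 array per hairpin), each point 1 probe on 1 array, with 0 as the mock level and a dashed line at 1.5-fold. All points lie above 0, and only FGG with shR-467, at 0.52, lies below the dashed line.

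Fibrinogen and UNC50 itself both differed least from mock with shR-467, and their hairpin orders differed between shR-554 and shR-749. Whether the 2 are related was not tested. UNC50, read from 1 probe of 1 spot, kept 24.0% of its mock level under shR-467, 13.7% under shR-554 and 18.7% under shR-749, so it was lowest with shR-554, where the fibrinogen differences were intermediate. Its mean log2 difference was -2.45 ± 0.40 (SD, n = 3), with an unadjusted limma p of 0.00014 and an adjusted p of 0.6247. Within the cluster, read from the brightest probe of each gene, the chains differed from one another by less than from the mock array. The difference of FGB exceeded that of FGG by 0.12, 0.85 and 0.21 for the hairpins in turn (mean 0.39 ± 0.39, SD, n = 3). FGB exceeded FGA by 0.23 ± 0.25 and FGA exceeded FGG by 0.16 ± 0.23, neither larger than 1 SD between hairpins. These orders depend on the FGA probe. Read from A_23_P44274, at 1.03, 2.59 and 2.86, FGA lay above both FGB and FGG with every hairpin.

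Among the 21232 genes well above background on all 4 arrays, FGB ranked number 7 by mean difference, counted from the highest, FGA number 20 and FGG number 32. By single hairpin they ranked 11, 19 and 16 in that order with shR-749 and 33, 84 and 183 with shR-554, but 1008, 869 and 1667 with shR-467. The fit across all 24903 genes tested used limma, and the spread of the single mock array was there taken to equal that of the hairpins. It gave unadjusted p-values of 0.0335 for FGB (SE 0.66), 0.033 for FGA and 0.0713 for FGG (SE 0.64), and an adjusted p of 0.9998 for each. The smallest p that an exact permutation of 1 array against 3 could reach is 0.25.

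Of the 34 genes, 28 were measured on a probe well above background for shR-MOCK or for each knockdown hairpin, and all 28 reached it on every one of the 4 arrays. F9, F13A1, THBD, TFPI2 and PLAT did not stand well above background on any array, and F8 did so only with shR-467, so no fold is given for these 6. At least 1.5-fold higher on average were 6 of the 28 (21.4%): FGA, FGB, FGG, SERPINC1, SERPINA5 and SERPINF2. Of all genes tested 2.28% passed the same rule, and of genes detected on every array 2.34%. At least 1.5-fold lower on average was PLAU alone, 3.57% of the 28, against 7.46% of all genes tested and 2.87% of those above background on all 4 arrays. FGA and FGB (7.14%) were at least 1.5-fold higher with every hairpin, against 0.534% and 0.57% of genes in the same backgrounds. None of the 28 was 1.5-fold lower with every hairpin, against 1.18% and 0.471%. Limma called 0 genes at an adjusted p under 0.05, or 0.0% of 24903, and 377 at an unadjusted p under 0.05, of which FGA, FGB and KNG1 were members. Without the mean-variance trend limma called 371 genes at an unadjusted p under 0.05 and 0 of them were members. The methods' t-test called 642 genes unadjusted, KNG1 among them, and 0 after Benjamini-Hochberg adjustment.

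The median of the mean log2 differences over the 28 genes was 0.13, against -0.03 over all genes tested and 0.0 over those well above background on all 4 arrays. Above 0 with every hairpin were 7 of the 28 (25.0%), close to the 20.3% of genes well above background on all 4 arrays. They were FGA, FGB, FGG, F2, KNG1, SERPINA5 and SERPINF2. The hairpins differed in which members they moved: 9 genes were at least 1.5-fold higher and 0 lower with shR-467, 4 higher and 5 lower with shR-554, and 6 higher and 1 lower with shR-749. Of genes well above background throughout, 6.1%, 4.5% and 5.25% were higher and 4.3%, 7.93% and 6.25% lower for the hairpins in turn.

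**Figure D2:**
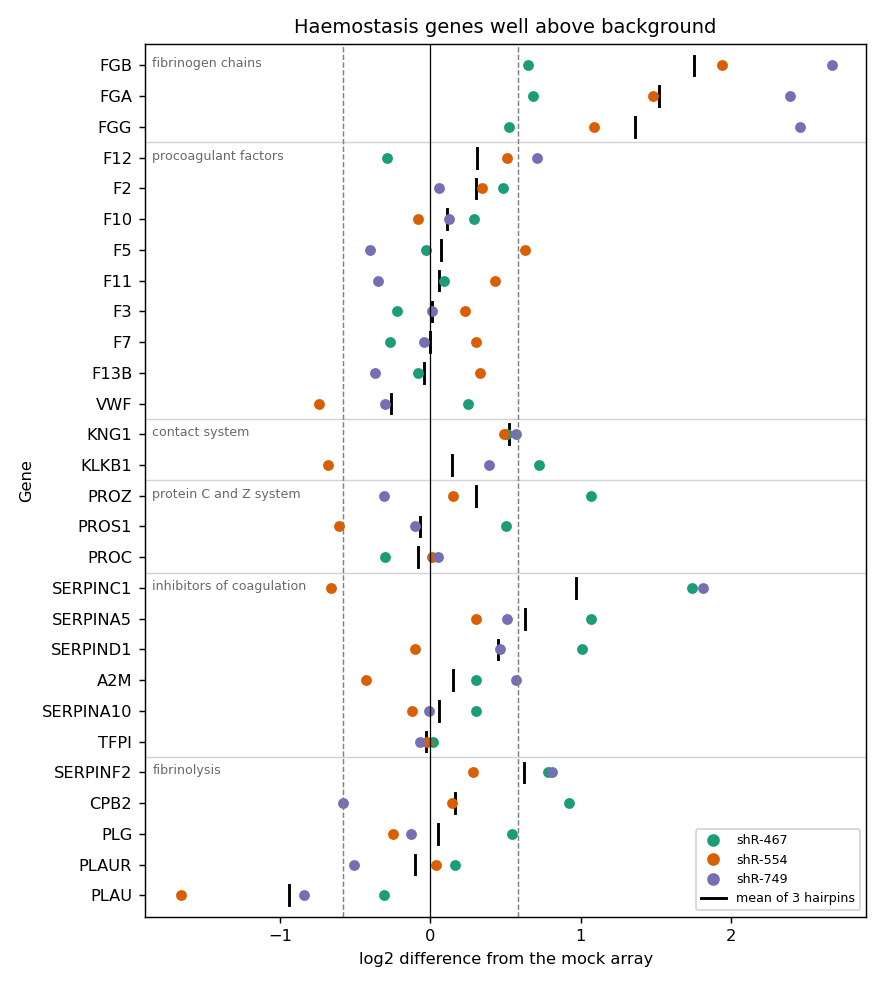
Log2 difference from the mock array (horizontal axis) for the 28 genes well above background, grouped by role (vertical axis), with 1 point per hairpin, a black bar at the mean of 3 hairpins and dashed lines at 1.5-fold in either direction. The fibrinogen chains stand apart at means of 1.36 to 1.75, and the procoagulant factors lie between -0.26 and 0.31.

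**Figure D3:**
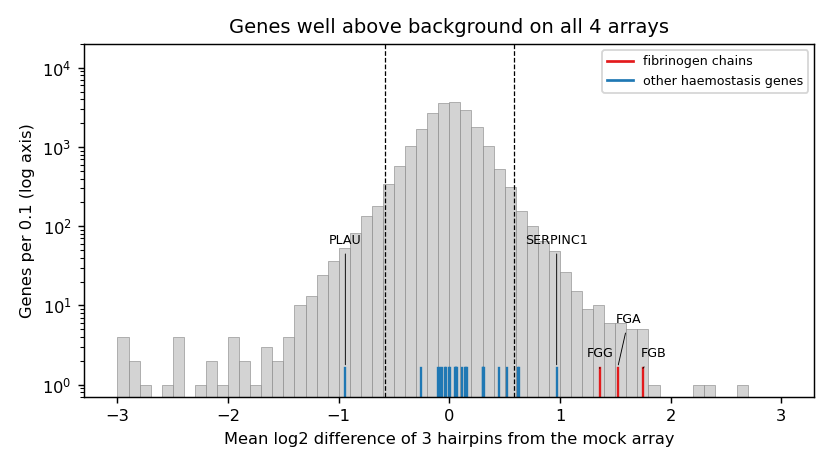
Number of genes (vertical log axis) by mean log2 difference of the 3 hairpins from the mock array (horizontal axis, steps of 0.1) over the 21232 genes well above background on all 4 arrays, values beyond 3 in either direction counted in the outermost steps. Ticks mark the 3 fibrinogen genes in red and the other 25 members in blue, and dashed lines mark 1.5-fold.

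Of the 12 procoagulant factors, 9 were measured and 0 reached 1.5-fold on average in either direction. F2, prothrombin, the precursor of thrombin, gave signals of 28066 under shR-MOCK, 34160 under shR-467, 44134 under shR-554 and 29621 under shR-749. Its log2 differences were 0.48, 0.34 and 0.06, all above the mock array, with a mean of 0.30 ± 0.21 (SD, n = 3). F12, which starts the contact pathway, gave 1180, 845, 2085 and 1945 for mock and the hairpins in turn, and differed by -0.29, 0.51 and 0.71, so the hairpins lay on both sides of the mock array. Its mean was 0.31, and 0.61 without shR-467, past 1.5-fold. F5, the cofactor of factor Xa, gave 261, 224, 499 and 199 in the same way and differed by -0.03, 0.63 and -0.40, higher with shR-554 alone.

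F3, tissue factor, which starts coagulation on cell surfaces, differed by 0.01 ± 0.23 (SD, n = 3) and its partner F7 by 0.00 ± 0.29 on the log2 scale. The proteases F10 and F11 differed by 0.11 ± 0.19 and 0.06 ± 0.39, and F13B, the carrier subunit of the fibrin crosslinking factor XIII, by -0.04 ± 0.35 (SD, n = 3). A dimmer F11 probe gave 0.03 ± 0.41. VWF, the carrier of factor VIII made mainly by endothelium, was dim, with signals of 36.6, 38.1, 27.2 and 30.1 for mock and the hairpins in turn, and differed by -0.26 ± 0.50 (SD, n = 3). In 6 of the 9 factors the mean was above 0, and in 1, F2, every hairpin was above the mock array.

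KNG1, the kininogen that carries prekallikrein in the contact system, varied least among the members called by limma unadjusted. Its signals were 4199 under shR-MOCK, 5230 under shR-467, 7300 under shR-554 and 6284 under shR-749. The log2 differences were 0.51, 0.49 and 0.57, a mean of 0.52 ± 0.04 (SD, n = 3) or 1.44-fold, with an unadjusted limma p of 0.022 and an adjusted p of 0.9998. KLKB1, prekallikrein, gave 81.8, 117, 63.5 and 108 in the same order of arrays. It differed by 0.72, -0.68 and 0.39, so that shR-554 lay on the other side of the mock array from shR-467 and shR-749.

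In the protein C and Z system, which limits coagulation, 3 of 4 genes were measured and 0 reached 1.5-fold on average. PROC, protein C, differed by -0.30, 0.01 and 0.05 (mean -0.08 ± 0.19, SD, n = 3), and its dimmer probe by -0.19 ± 0.17. PROS1, protein S, the cofactor of activated protein C, differed by 0.50, -0.61 and -0.10 with a mean of -0.07 ± 0.56 (SD, n = 3). A second probe named PROS1 lies at chr3:90251422-90251481 on hg19, apart from the first at chr3:93592149-93592208, and differed by -0.11 ± 0.42. PROZ, protein Z, gave signals of 351 under shR-MOCK, 643 under shR-467, 484 under shR-554 and 285 under shR-749, and differed by 1.07, 0.15 and -0.31. It was higher with shR-467 by more than with either of the others, and its mean of 0.30 was smaller than its SD of 0.70. Without shR-749 the mean was 0.61, past 1.5-fold, and without shR-467 it was -0.08.

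Among the inhibitors of coagulation, 6 of 7 genes were measured, 2 were at least 1.5-fold higher on average and 0 lower. SERPINC1, antithrombin, the main plasma inhibitor of thrombin and factor Xa, was read from 10 spots. Its signals were 1709 under shR-MOCK, 5000 under shR-467, 1344 under shR-554 and 6056 under shR-749. The log2 differences were 1.74, -0.66 and 1.81, so it was over 1.5-fold higher with shR-467 and shR-749 and over 1.5-fold lower with shR-554. The mean of 0.97 ± 1.41 (SD, n = 3) was smaller than its spread, with an unadjusted limma p of 0.316. Without shR-554 the mean was 1.78, and without shR-467 or shR-749 it was 0.58 or 0.54, below 1.5-fold.

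SERPINA5, the protein C inhibitor, gave signals of 1284 under shR-MOCK, 2360 under shR-467, 1960 under shR-554 and 1850 under shR-749. It was higher with each hairpin, by 1.07, 0.30 and 0.51 (mean 0.63 ± 0.40, SD, n = 3), and its unadjusted limma p was 0.0896. Without shR-467 its mean was 0.41 and below 1.5-fold. SERPIND1, heparin cofactor II, gave 3635, 6380, 4214 and 5029 for mock and the hairpins in turn. It differed by 1.01, -0.10 and 0.46, a mean of 0.45 ± 0.55 (SD, n = 3), and after scaling shR-554 again lay below the mock array. Without shR-554 its mean was 0.73, past 1.5-fold. A2M, a broad protease inhibitor, differed by 0.30, -0.43 and 0.57, and SERPINA10, the protein Z-dependent inhibitor of factor Xa, by 0.06 ± 0.22 (SD, n = 3).

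TFPI, which inhibits tissue factor with factor VIIa, was read by 2 probes that gave different results. The brighter probe, A_33_P3212615 at chr2:188329008-188329067 on hg19, gave signals of 4685 under shR-MOCK, 4137 under shR-467, 5720 under shR-554 and 4495 under shR-749. Its log2 differences were 0.02, -0.02 and -0.07, a mean of -0.03 ± 0.04 (SD, n = 3). The other probe, A_23_P330070 at chr2:188343406-188343465 and annotated to a different transcript, gave 2955, 1410, 1555 and 1490 in the same order. It was lower with every hairpin, by -0.87, -1.24 and -1.0 on the log2 scale, a mean of -1.04 ± 0.19 (SD, n = 3) or 2.05-fold. Within the arrays, where scaling cancels, the difference of this probe lay below that of the brighter one by -0.89, -1.21 and -0.93, with a mean of -1.01 ± 0.18. Neither probe was near background on any array. This contrast was picked out after the values were seen and was not tested. The 5 other genes outside the fibrinogen cluster with 2 probes are F11, F13A1, PLAU, PROC and PROS1. The second probes of F11 and PROC differed from mock much as the first ones did, and those of F13A1 and PLAU were dim. The second probe named PROS1 also differed much as the first, but it lies apart from it, and whether it reads PROS1 was not tested.

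**Figure D4:**
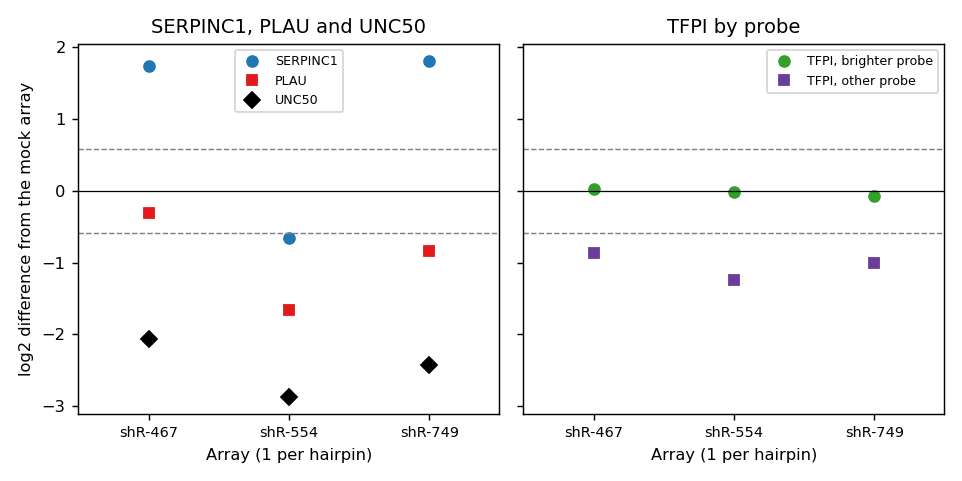
Log2 difference from the mock array (vertical axis) with each hairpin (horizontal axis, 1 array each), for SERPINC1, PLAU and UNC50 on the left and the 2 TFPI probes on the right, with dashed lines at 1.5-fold. SERPINC1 lies at 1.74 and 1.81 with shR-467 and shR-749 but at -0.66 with shR-554, and the TFPI probes lie near 0 and near -1.04.

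In fibrinolysis, 5 of 6 genes were measured, with 1 higher and 1 lower by 1.5-fold on average. PLAU, urokinase, which activates plasminogen, was read from 10 spots. It gave signals of 689 under shR-MOCK, 484 under shR-467, 270 under shR-554 and 388 under shR-749, all below the mock array. The log2 differences were -0.31, -1.66 and -0.84, a mean of -0.94 ± 0.68 (SD, n = 3) or 1.92-fold lower, with an unadjusted limma p of 0.0943. Without shR-554 the mean was -0.58 and below 1.5-fold. PLAUR, its receptor, differed by 0.16, 0.04 and -0.51, with a mean of -0.10 ± 0.35 (SD, n = 3).

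SERPINF2, alpha-2-antiplasmin, the main inhibitor of plasmin, gave 188 under shR-MOCK, 283 under shR-467, 282 under shR-554 and 332 under shR-749, all above the mock array. It differed by 0.78, 0.28 and 0.81 (mean 0.62 ± 0.30, SD, n = 3). Without shR-467 its mean was 0.54 and without shR-749 it was 0.53, both below 1.5-fold. PLG, plasminogen, differed by 0.54, -0.25 and -0.13, a mean of 0.05 ± 0.42. The array files place its probe at chr6:160874280-160874339 on the minus strand of hg19. Whether that probe reads PLG or a related sequence was not tested. CPB2, a carboxypeptidase that slows fibrinolysis, gave 188, 311, 257 and 127 for mock and the hairpins in turn, and differed by 0.92, 0.14 and -0.58, with a hairpin on each side of the mock array.

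Of 29 other haemostasis genes, such as receptors, cofactors and processing enzymes, 27 were on the array and 23 were measured. At least 1.5-fold higher on average was 1 of them and 0 were lower, and 0 were past 1.5-fold with every hairpin. That gene was APOH, beta-2-glycoprotein I, with a mean of 0.60, named here because the count was small. Of 16 regulators of the fibrinogen genes 15 were measured and 0 reached 1.5-fold on average in either direction, with means between -0.20 and 0.40. The highest mean was that of IL6R, the interleukin-6 receptor, which gave signals of 123, 118, 133 and 298 for mock and the hairpins in turn and differed by 0.14, -0.20 and 1.26, so that it stood at 2.4 times its mock level with shR-749, the hairpin with the largest fibrinogen differences. Its part in those differences was not tested. The lowest mean was that of SOCS3, an interleukin-6 target gene, at 0.24, -0.46 and -0.38. CEBPB differed by -0.07, -0.29 and 0.31, and STAT3 by 0.43, -0.05 and -0.48. These 4 genes were picked after the values were seen, and IL6 itself was dim on each array. Of 9 genes that neighbour the cluster 6 were measured and 0 reached 1.5-fold on average, with means between -0.47 and 0.10.

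Hepatocyte markers, which mark the tissue Hep3B comes from, were all measured: 11 of 11 were well above background on all 4 arrays. Of these 5, FGB included, were at least 1.5-fold higher on average, 3 of them with every hairpin, and 0 were lower. Of all genes well above background on all 4 arrays 2.34% were higher on average, 0.57% with every hairpin, and 2.87% lower on average. Higher levels were thus not particular to the fibrinogen genes among liver products. Besides FGB the 3 markers higher with every hairpin include APOA1, the main protein of high density lipoprotein, at 1.35, 0.60 and 1.06. The other is TTR, transthyretin, at 0.64, 0.65 and 1.15. AFP, the fetal serum protein, differed by 0.20, 1.02 and 1.53, in the same hairpin order as fibrinogen, while ALB differed by 0.31, 0.18 and 0.27. The summed signal of the 10 markers other than FGB, in units of the 75th percentile of the array, was 530 for the mock hairpin and 765, 648 and 676 for the knockdown hairpins in turn. ALB and AHSG, the brightest of them with mock signals of 244338 and 147499, weigh most in this sum. The part of these markers in the fibrinogen differences was not tested, and in RNA from whole cultures more cells of a kind and more RNA per cell cannot be told apart. Of the listed markers of other cell types, KDR, TEK and TIE1 of endothelium, PF4 and PPBP of platelets, CD163 and MARCO of macrophages and COL1A1, COL3A1 and PDGFRB of fibroblasts were too dim to be measured by the rule above. Measured were 3 of 6 endothelial, 3 of 5 platelet, 3 of 5 macrophage and 2 of 5 fibroblast markers, and 0 of these were 1.5-fold higher on average. PECAM1, CDH5 and VWF of endothelium, ITGA2B and GP9 of platelets, and CD14 and PTPRC of macrophages were well above background on each array. CDH5 differed by 0.72, 0.98 and -0.18, PECAM1 by 0.69, -0.44 and 0.39, and CD14, with signals of 1750 to 2743, by 0.84, 0.26 and 0.04. CSF1R was lower with each hairpin but not well above background with shR-554, so no fold is given. The summed signals of these lists, in the same units, were 0.246 for mock and 0.264 to 0.376 for the hairpins in endothelial, 0.308 and 0.318 to 0.397 in platelet, 1.71 and 1.73 to 3.0 in macrophage, and 0.0733 and 0.0521 to 0.147 in fibroblast markers. CD14 weighs most in the macrophage sum. COL1A2 weighs most in the fibroblast sum of shR-749, at a signal of 106, but was not well above background with shR-467 or shR-554.

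The arrays themselves were alike in most measures of quality but differed in brightness. Their 75th percentile signals were 1120 for mock and 978, 1390 and 1130 for the hairpins in turn, so unscaled signals are not directly comparable between arrays. Each had 58717 spots other than controls, of which 67.6% to 73.6% were well above background, 0 were saturated and 254 to 466 were marked as outliers. They shared 1 slide and 1 scan.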

How the data were processed

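Total RNA from 4 Hep3B cultures was hybridised to 1-colour Agilent arrays. The authors deposited the scanner output of Agilent Feature Extraction 10.7.1.1 (per the labels), with an intensity for each spot from which the software had subtracted the background, and a table of log2 values deposited for the same arrays. How that table was normalized is not given in the sources used here. Its direction follows the scanner signals and its median was 6.37 on each array.

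Groups came from the sample labels. The main value was the log2 of the processed intensity minus the 75th percentile of its array, taken over non-control spots. Spots marked as outliers were dropped, repeat spots were averaged, and scanner signals in the text are these averages before scaling. A gene was read from its probe with the highest mean signal, and the 3 fibrinogen genes from every probe. It was tested if that probe was well above background, on over 50.0% of its spots, for the mock hairpin or for each of the 3 knockdown hairpins. Differences are knockdown minus mock, and the threshold of 1.5-fold on average is the methods'. Every listed member is named, the genes of other lists where every hairpin passed 1.5-fold, and any other gene as said beside it. Some genes of the other lists and 1 planned motif are not reported here. The members, lists and motifs were chosen with earlier results of these data known.

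Tests used limma 3.58.1 in R 4.3.3 (lmFit, then eBayes with trend, with p-values adjusted by Benjamini-Hochberg over 24903 genes). The fit left 2 residual degrees of freedom, to which the prior added 4.92. Nothing in the labels ties the arrays to separate cultures beyond their hairpins, so p-values measure only the spread between these hairpins. Only the limma fit was run on simulated data, not the choice of probes, filters or scaling. There the mock array was drawn with the spread of the hairpins, so the spread between controls was not covered. Tables were made with Python 3.11.15, numpy 2.4.6 and pandas 2.3.3. All 34 symbols were current in RefSeq. The number of arrays limits the precision.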

Additional observations from a re-analysis of the deposited data

How the results depend on the processing

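The alternatives were other scalings (median, quantile), normexp with an offset of 50 and quantile normalization, the authors' log2 table, raised low signals, outlier spots retained, all probes of a gene averaged, other filters, limma without the trend, a 2-fold threshold and each hairpin left out. Of 351 alternative values 344 moved by no more than 1 SD between hairpins, or by no more than 1.5 times for a count, and crossed no threshold of a test. This count overstates stability. A mean of 3 hairpins cannot move by 1 SD when 1 of them is left out, and averaging probes cannot move a gene with 1 probe. Some means changed sign within that limit, as PROZ did from 0.30 to -0.08 without shR-467. Over 10 alternatives each, the mean log2 difference ranged from 1.29 to 2.30 for FGB, 1.08 to 1.94 for FGA, 0.81 to 1.78 for FGG and -2.64 to -2.24 for UNC50, and the adjusted limma p of UNC50 from 0.07373 to 0.6414. At 2-fold, 3 members were higher on average, 0 lower on average and 0 higher with every hairpin. With each hairpin left out, 4 to 7 were higher on average, FGA, FGB and FGG each time, 0 to 1 lower on average, 2 to 4 higher with every hairpin and 0 to 1 lower with every hairpin, where fewer hairpins had to pass. With normexp SERPINF2 came to 0.48, and TFPI as the mean over its probes to -0.53. With no filter on dim probes F9 was also higher, on a probe that was not well above background. Scaling moved the median of all genes by less than 0.1. A block for slide or scan was not fitted, since the arrays did not differ in either. No paired analysis was possible because the labels give no shared replicate numbers. Depth does not apply to arrays, and signal over background limits the dim members.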
